A study of Mus musculus with 2 samples.

Results

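Mir148a, Mir148b and Mir152 are the 3 genes of a microRNA family that shares its seed, the bases near the 5′ end through which a microRNA pairs with its targets. They were found by matching the stable Ensembl identifiers of the gene count tables to GENCODE symbols, which gave 3 members of 1973 listed microRNA genes. Small RNA was sequenced from hearts of mouse embryos of strain B6NCrl at embryonic day 10.5, both sexes mixed, in 2 libraries that the labels call biological replicates. Replicate 1 came from a pool of 69 embryos and replicate 2 from a pool of 51 embryos, so each value averages over many hearts and no single embryo can be read. The labels name no treatment or mutant and give 1 group, so the comparisons are between genes and between the replicate libraries.

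MicroRNAs are cut from hairpin transcripts into short mature strands that guide Argonaute proteins to messenger RNAs, which are then repressed. A hairpin can give a mature strand from each arm, called 5p and 3p. The miR-148 and miR-152 family is known for targeting Dnmt1, the maintenance DNA methyltransferase, and miR-148a is known as an abundant microRNA of adult liver. Mir148b and Mir152 are hosted by Copz1 and Copz2, which encode zeta subunits of the COPI coat of vesicles that return from the Golgi to the endoplasmic reticulum.

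The mature 3p strands are shown first because their shared seed defines the family. Sequences are from RefSeq (GRCm38.p6), 5′ to 3′, with bases 2 to 8 in capitals. All 3 genes matched that table.
miR-148a-3p: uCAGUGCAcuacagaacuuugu
miR-148b-3p: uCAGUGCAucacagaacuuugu
miR-152-3p: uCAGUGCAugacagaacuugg
The seed CAGUGCA stood at bases 2 to 8 of these 3 mature strands and of no other among the 1738 mature strands of the table. Outside the seed the strands differed at few places, counted from 1 at the 5′ end. From miR-148a-3p to miR-148b-3p the changes were C9U and U10C. From miR-148a-3p to miR-152-3p they were C9U, U10G and U20G, and from miR-148b-3p to miR-152-3p they were C10G and U20G. miR-152-3p has 21 bases and the others have 22.

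The 5p strands were less alike, and they are shown because their seeds split the family.
miR-148a-5p: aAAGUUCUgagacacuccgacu
miR-148b-5p: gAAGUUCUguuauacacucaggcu
miR-152-5p: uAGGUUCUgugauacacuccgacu
The 5p seed AAGUUCU was held by miR-148a-5p and miR-148b-5p alone in the table, and AGGUUCU by miR-152-5p alone. The deposited counts are per hairpin gene and do not separate the arms, so a level here is the sum of 3p and 5p reads.

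The whole hairpins bear on whether reads of the members could be confused. The mature strands are in capitals.
Mir148a: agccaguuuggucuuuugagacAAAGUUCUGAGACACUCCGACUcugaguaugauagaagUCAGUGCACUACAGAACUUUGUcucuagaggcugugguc
Mir148b: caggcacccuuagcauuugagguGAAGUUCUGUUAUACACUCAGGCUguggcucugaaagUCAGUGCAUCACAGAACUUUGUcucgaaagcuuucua
Mir152: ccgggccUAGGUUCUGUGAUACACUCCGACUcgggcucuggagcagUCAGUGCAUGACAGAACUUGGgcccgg
The longest identical stretch between Mir148a and Mir148b was 15 bases. It was 12 bases between Mir148a and Mir152, and 11 between Mir148b and Mir152. None of the 1005 hairpins of the table shared 20 or more bases with a member. Reads that mapped to several places, 23.3% and 23.5% of all reads in replicates 1 and 2, were counted in no gene. These are fewer hairpins than the 1973 listed genes, so some listed genes were not compared. Copies outside the compared hairpins were not searched for, and how many mismatches the alignment allowed is not known here. The Mir152 hairpin was the shortest, with 73 bases against 99 for Mir148a and 97 for Mir148b. It also had the most G and C, 61.6% against 45.5% and 45.4%. The predicted folding energy was -43.5 kcal/mol for Mir152, -41 for Mir148a and -30.9 for Mir148b.

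The members lie on separate chromosomes of mm10 (GRCm38). Mir148a (ENSMUSG00000065505.1) is at chr6:51269812-51269910 on the minus strand and overlaps no other annotated gene. The nearest annotated gene is the long noncoding RNA gene Gm32479, 13.6 kb away on the same strand. Mir148b (ENSMUSG00000065560.1) is at chr15:103285125-103285221 on the plus strand, in the first intron of all 4 Copz1 transcripts that span it. Mir152 (ENSMUSG00000065515.1) is at chr11:96850393-96850465 on the plus strand, in the first intron of all 3 Copz2 transcripts that span it. Mir152 begins 523 bases after the annotated start of Copz2, and Mir148b begins 12411 bases after that of Copz1. Both lie on the strand of their host.

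The loci share neighbours that the choice of members did not use. Mir152 is 482 kb from Hoxb1 and Mir148b is 248 kb from Hoxc4, genes of the Hox clusters, which set position along the body axis. Mir148a is 886 kb from the Hox cluster of chromosome 6. Of the 424 listed genes with at least 10 counts in either library, 9 (2.12%) lie within 1 Mb of a Hox cluster, the members included. A gene of the Nfe2 family, which encodes transcription factors of the CNC type, is the nearest protein-coding gene on 1 side of each of the 3 members. These are Nfe2l3, 163 kb from Mir148a, Nfe2, 26.7 kb from Mir148b, and Nfe2l1, 20.4 kb from Mir152. Within 100 kb there was 1 other listed microRNA gene, Mir6963 near Mir148b, with 4 and 5 counts. That gene is 65.2 kb away, and no member has a closer microRNA neighbour among the listed genes.

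The libraries held 4163656 and 4789068 counts on the genes' own strand, and levels are given as CPM, counts scaled to a common total over all listed genes. The heart muscle microRNAs Mir208a, Mir208b and Mir499 were present, with summed levels of 34740 and 69047 CPM in replicates 1 and 2. Markers of other cell types were taken from fixed lists, and which cells of these hearts their reads came from was not tested. The endothelial gene Mir126a had 53306 and 55503 CPM, and the smooth muscle genes Mir143 and Mir145a summed to 69745 and 86022 CPM. The 4 liver and gut genes summed to 3351 and 293 CPM, the 5 epithelial genes to 5096 and 1332 CPM, the 3 red blood cell genes to 1160 and 1713 CPM, and the leukocyte genes Mir223 and Mir155 to 454 and 332 CPM. Within these sums Mir144 of the red blood cell list had 120 and 103 CPM, and Mir155 had 214 CPM in each library. None of these markers was at 0, and the leukocyte gene Mir142 was not analysed here.

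Mir148a was the most abundant member. It had 3559 counts in replicate 1 and 4300 in replicate 2, which is 855 and 898 CPM, or 876 ± 30.5 CPM (SD, n = 2). Its exact 95% intervals were 827 to 883 and 871 to 925 CPM. These intervals and those below speak of the counting error of reads alone and leave out the spread between pools. Amplified reads that carry no molecular identifier need not be separate molecules, so the intervals can be too narrow even for counting error. By level it ranked 110 in replicate 1 and 88 in replicate 2 among the 1973 listed genes. Of these, 677 and 682 had any count in replicates 1 and 2. In a whole organ, a lower level can come from fewer cells that make a microRNA or from less of it per cell, and these cannot be told apart.

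Mir148b, the copy in Copz1, had 782 and 825 counts. Its level was 188 CPM in replicate 1 and 172 CPM in replicate 2, or 180 ± 11.0 CPM (SD, n = 2), with ranks of 183 and 172. Mir152, the copy in Copz2, had 578 and 662 counts. Its levels were 139 and 138 CPM, a mean of 139 ± 0.416 CPM (SD, n = 2), with ranks of 191 and 181. With TMM scaling, described below, its levels were 126 and 152 CPM and those of Mir148b 171 and 189 CPM, so which member lay closest between the libraries depends on the scaling. Both intronic members thus stood far below Mir148a in each library.

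Together the family held 1181 CPM in replicate 1 and 1208 CPM in replicate 2, or 0.119% ± 0.00191 of own-strand counts (SD, n = 2). The exact 95% intervals of the share, 0.115 to 0.121% and 0.118 to 0.124%, overlapped. Mir148a made up 72.4% of the family's counts in replicate 1 (71.1 to 73.6) and 74.3% in replicate 2 (73.2 to 75.4). Mir148b made up 15.9% and 14.3%, and Mir152 made up 11.8% and 11.4%.

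Mir148a exceeded Mir148b 4.55-fold in replicate 1 and 5.21-fold in replicate 2, a log2 ratio of 2.28 ± 0.14 (SD, n = 2). It exceeded Mir152 6.16-fold and 6.50-fold, a log2 ratio of 2.66 ± 0.05. These gaps are many times the spread between the libraries. Mir148b exceeded Mir152 1.35-fold and 1.25-fold in counts, a log2 ratio of 0.38 ± 0.08, and the exact intervals of that log2 ratio lay above 0 in both libraries (0.28 to 0.59 and 0.17 to 0.47). The order of the lower pair depended on the scale. Per 100 bases of hairpin, Mir148b had 194 and 178 CPM and Mir152 had 190 and 189 CPM, so their values overlapped. On the same scale Mir148a had 863 and 907 CPM and stayed first. A small RNA read covers a mature strand and not the hairpin, so the count grows with hairpin length less directly than for long RNA. An exact sign-flip test over 2 libraries cannot give a two-sided p below 0.5, so the order was not tested over libraries.

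**Figure D1:**
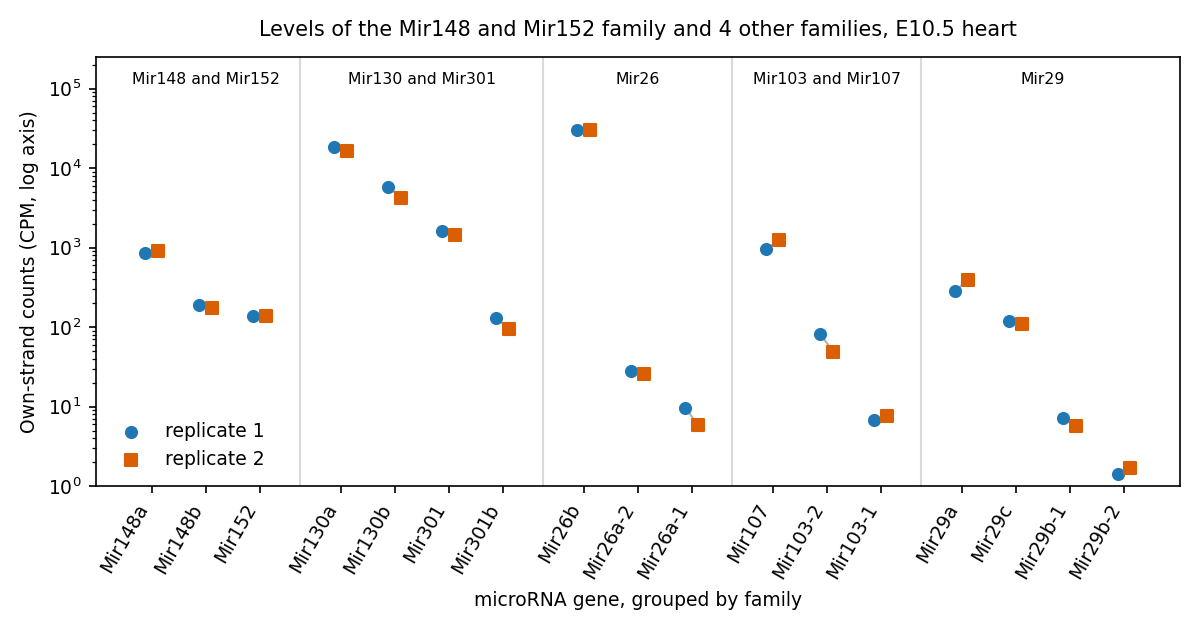
Own-strand level (CPM, log axis) of each gene in replicate 1 (circles) and replicate 2 (squares), with the Mir148 and Mir152 family beside 4 other families. Mir148a lies near 876 CPM and the intronic members near 180 and 139 CPM, while Mir26b and Mir130a lie near 30577 and 17406 CPM; Mir130c, with 0 counts in both libraries, is not drawn.

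Almost no reads lay on the strand opposite to the members. Mir148a and Mir152 each had 1 opposite-strand count in replicate 1 and 0 in replicate 2, and Mir148b had 0 in both. Of the 424 genes that reached 10 counts in either library, 397 (93.6%) likewise had at most 1 such count in each library.

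The replicate libraries were compared with an exact binomial test on the counts of each of these 424 genes, with library sizes scaled by TMM, the trimmed mean of log ratios, and Benjamini-Hochberg adjustment over all of them. TMM sets the typical gene to no difference, while total counts let a few abundant genes move all others. The test compares these libraries and not conditions. It called 61.6% of genes, 30.4% higher and 31.1% lower in replicate 2. All 3 members passed the filter, and 2 of the 3 were called, both higher. Among other tested genes within 2-fold of the level of Mir148a, 95% were called in either direction. For Mir148b that share was 81.2% and for Mir152 76.1%, all above the 61.6% of all tested genes. With 3 members, their share cannot be set apart from these.

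Mir148a had a log2 ratio of 0.35 of replicate 2 over replicate 1 (exact 95% interval 0.28 to 0.41, adjusted p = 1.3e-25). Mir152 had a log2 ratio of 0.27 (0.11 to 0.43, adjusted p = 0.0021), and Mir148b of 0.15 (0.01 to 0.29, adjusted p = 0.061), which did not pass. These directions depend on the scaling. Scaling by total counts lowers every log2 ratio by 0.27. Under it Mir148a was at 0.07 (adjusted p = 0.049), Mir152 at -0.01 (adjusted p = 0.98) and Mir148b at -0.12 (adjusted p = 0.12). That scaling called 61.8% of genes, 15.6% higher and 46.2% lower.

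The members' ratios were small for these libraries. The biological coefficient of variation, the spread between replicates beyond counting error, was 37.2% over the tested genes, which corresponds to an SD of 0.76 for a log2 ratio between 2 libraries, and each member's ratio was below it under both scalings. Of the 424 tested genes, 38.7% had a smaller absolute log2 ratio than Mir148a, 32.5% a smaller one than Mir152 and 17.2% a smaller one than Mir148b. Among the 60 other tested genes within 2-fold of the level of Mir148a, the median absolute log2 ratio was 0.62, and 20 had a smaller ratio than Mir148a. For Mir148b the corresponding median was 0.39, with 12 of 69 genes below it, and for Mir152 it was 0.36, with 25 of 67 genes below it.

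**Figure D2:**
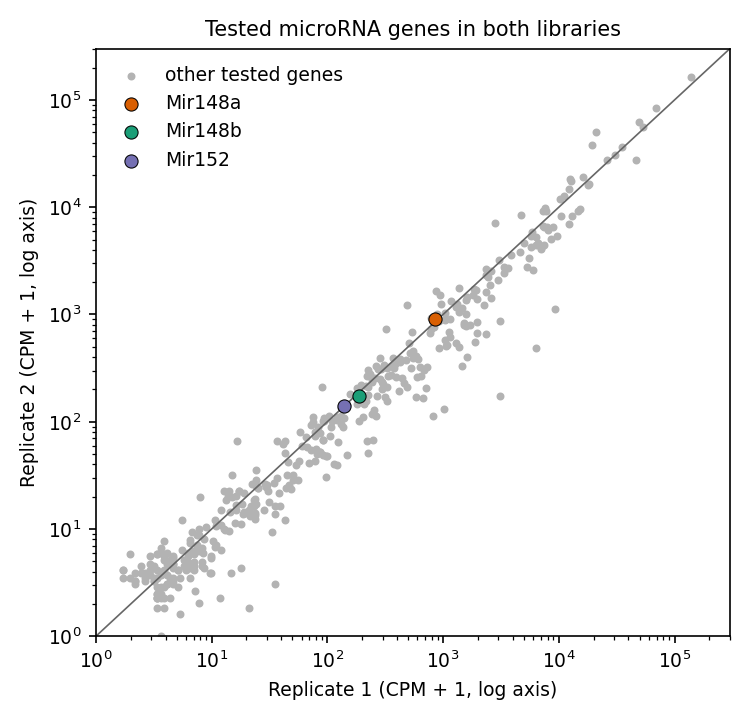
Level in replicate 1 against replicate 2 for the 424 tested genes (CPM + 1, both axes log), with the diagonal of equal CPM. Mir148a, Mir148b and Mir152 lie close to the diagonal, at CPM of 855 and 898, 188 and 172, and 139 and 138.

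The make-up of the family could be compared without any scaling. The log2 ratio between the libraries was higher for Mir148a than for Mir148b by 0.20 (95% interval 0.04 to 0.35, Fisher's exact test, two-sided, adjusted p = 0.040 over 3 pairs). Mir148a and Mir152 differed by 0.08 (-0.10 to 0.25, adjusted p = 0.39 by the same exact test). Mir148b and Mir152 differed by -0.12 (-0.34 to 0.10, adjusted p = 0.39 by the same exact test). The single pair that passed differed by less than the 0.76 that replicate spread gives for 1 gene.

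MicroRNAs of the Hox clusters on the same chromosomes were set beside the members. They were picked after their values were seen, so the values are a description with no test. Mir10a of the Hoxb cluster, on the chromosome of Mir152, had 9250 CPM in replicate 1 and 1114 CPM in replicate 2, a log2 ratio of -2.78 with TMM scaling. On chromosome 15, that of Mir148b, Mir615 had 826 and 111 CPM, a log2 ratio of -2.62, and Mir196a-2 had 34.1 and 12.9 CPM, a log2 ratio of -1.12. On chromosome 6, that of Mir148a, Mir196b had 1459 and 330 CPM, a log2 ratio of -1.87. All 4 were lower in replicate 2, while the members lay between 0.15 and 0.35 on the same scale.

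**Figure D3:**
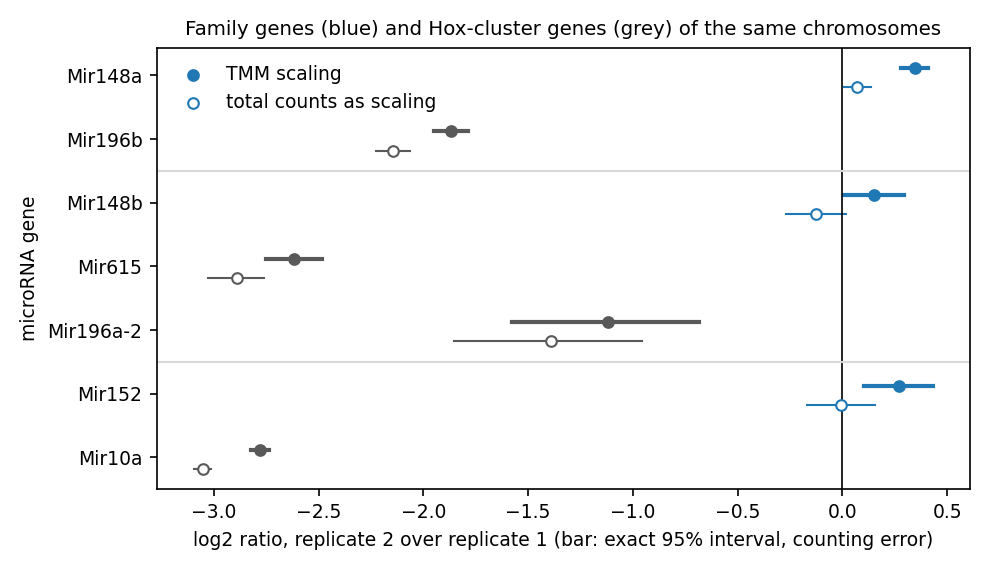
log2 ratio of replicate 2 over replicate 1 for the family genes (blue) and for Hox-cluster microRNAs on the same chromosome (grey), filled points with TMM scaling and open points with total counts, bars giving exact 95% intervals for counting error. The family genes lie between -0.12 and 0.35 under either scaling, and the Hox-cluster genes lie below -1.1.

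Mir148a, which is known from liver, can be set beside the liver marker Mir122. Mir122 had 3078 CPM in replicate 1 and 175 CPM in replicate 2, while Mir148a had 855 and 898 CPM. Mir192 and Mir194-2, known from liver and gut, fell with Mir122, with log2 ratios of -1.33 and -1.23 (adjusted p = 1.1e-35 and 1.0e-24, exact binomial test with TMM scaling). Mir194-1 went the other way, with 13.9 and 30.9 CPM and a log2 ratio of 1.42 (adjusted p = 7.2e-11 by the same exact test). It shares 22 bases with Mir194-2. Of the 4 liver and gut genes, 3 were called lower in replicate 2 and 1 higher, against 31.1% and 30.4% of all tested genes. With TMM scaling the log2 ratio of replicate 2 over replicate 1 was -3.87 for Mir122 and 0.35 for Mir148a. With total counts the values were -4.14 and 0.07. Which tissue the reads of Mir148a came from was not tested.

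Genes of the closest level in both libraries were taken by the distance of log2(CPM + 1) over the 2 libraries among the 381 genes that reached 10 counts in both. For Mir148a these were Mir210 with 792 and 927 CPM, Mir674 with 922 and 863 CPM and Mir145a with 881 and 1011 CPM, at distances of 0.12, 0.12 and 0.18. For Mir148b they were Mir500, Mir32 and Mir539, at distances of 0.09, 0.23 and 0.24. For Mir152 they were Mir138-2, Mir874 and Mir30b, at distances of 0.05, 0.09 and 0.11. Mir138-2, the nearest of all, had 135 and 134 CPM.

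The 7 letters of the family's seed also begin mature strands of Mir130a, Mir130b, Mir130c and Mir301, shifted by 1 base, and those of Mir6341, Mir6389 and Mir721. That comparison was chosen after the sequences were seen. Bases 1 to 7 are in capitals in the 3 shown.
miR-130a-3p: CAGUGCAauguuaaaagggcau
miR-130b-3p: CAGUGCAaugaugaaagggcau
miR-301a-3p: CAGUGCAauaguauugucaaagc
Because the letters start at base 1, bases 2 to 8 of these strands differ from those of the Mir148 and Mir152 strands, and the families have separate seeds. The letters stood at bases 1 to 7 in 7 mature strands of the table and anywhere in 17. The 5 Mir130 and Mir301 genes, Mir301b included, summed to 25895 and 22245 CPM, 21.9-fold and 18.4-fold above the Mir148 and Mir152 family. They were led by Mir130a with 17406 ± 1387 CPM and Mir130b with 5021 ± 1053 CPM (SD, n = 2). With TMM scaling 2 of 4 tested genes were called higher in replicate 2 and 2 were called lower, against 30.4% and 31.1% of all tested genes. With total counts all 4 were called lower, but that scaling lowers every log2 ratio by 0.27 and called 46.2% of all tested genes lower.

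Like Mir148b and Mir152, other microRNA genes sit in introns of paralogous host genes. In the Mir26 family, hosted by Ctdsp genes that encode small phosphatases, Mir26b had 30577 ± 40.3 CPM (SD, n = 2). Mir26a-2 and Mir26a-1 had 26.8 ± 1.86 and 7.73 ± 2.66 CPM, and share 25 bases with each other, so reads of their common mature strand could have been left uncounted. Among the Pank-hosted genes, from introns of pantothenate kinase genes, Mir107 had 1106 ± 204 CPM, Mir103-2 65.1 ± 22.4 and Mir103-1 7.23 ± 0.708. The last pair share 27 bases, and Mir107 shares 24 with Mir103-2. The sum of Mir103 and Mir107 genes was 0.888-fold and 1.08-fold that of the Mir148 and Mir152 family in replicates 1 and 2. Shared reads were counted in no gene, so this sum is a lower limit and the families cannot be ranked.

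The Mir29 genes are the other family taken here for its DNA methyltransferase targets, since miR-29 is known to target Dnmt3a and Dnmt3b, the de novo enzymes. Their counted reads summed to 416 and 512 CPM, beside 1181 and 1208 CPM for the Mir148 and Mir152 family in replicates 1 and 2. Of 4 genes 3 were tested. With TMM scaling 1 was called higher in replicate 2 and 0 were called lower, against 30.4% and 31.1% of all tested genes. Mir29a had 286 and 396 CPM and was higher, with a log2 ratio of 0.74 (adjusted p = 1.7e-44, exact binomial test with TMM scaling) and of 0.47 with total counts. Mir29c had 121 and 109 CPM and a log2 ratio of 0.12 (adjusted p = 0.26 by the same exact test). Mir29b-1 had 30 and 27 counts and Mir29b-2 had 6 and 8. They share 25 bases, and Mir29c shares 22 with Mir29b-1, so the sum of the Mir29 genes is a lower limit and the families cannot be ranked. The levels of these enzymes' messenger RNAs are not measured in small RNA libraries.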

How the data were processed

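MicroRNA sequencing gave read counts per microRNA gene, deposited by the authors without normalization, for 2 heart libraries. Counts were made from each library's own alignment on mm10 with GENCODE M4, per the README files. The sources used here do not name the aligner, counter or trimming. Each table gives counts over both strands, on the gene's own strand and on the opposite strand. Own-strand counts were used. Rows naming no gene were left out. Of all reads, 26.3% and 25.5% were unmapped, and 23.3% and 23.5% mapped to several places. A further 8.98% and 7.41% lay on the own strand of no listed gene. A count of 0 allows up to 3 counts, 0.721 and 0.626 CPM. Of 1973 identifiers 1894 matched GENCODE M21, which is on the same assembly. A chi-square over 461 genes of 354100 (460 degrees of freedom) showed that the libraries are not 1 library deposited again.

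Genes that reached 10 counts in either library were compared by an exact two-sided conditional binomial test, scaled by TMM (edgeR 4.0.16), at an adjusted p of 0.05. A prior count of 0.5 was added before log2 ratios were taken. The coefficient of variation is the square root of the common dispersion that edgeR gave for a model with an intercept alone. Exact (Clopper-Pearson) and conditional 95% intervals came from scipy 1.17.1, and folding energies from RNAfold 2.7.2. The binomial test was tried on simulated counts that held counting error alone. That simulation cannot show how the test behaves under the spread between these replicates. Named are the members, the 3 genes nearest to each in level, microRNA genes within 100 kb, and the lists above. The members and lists were chosen with earlier results of these data known, and the Hox-cluster and Mir130 comparisons after values or sequences were seen. Alternatives were other scalings (DESeq2 1.42.0 size factors, total counts), both strands, other filters and prior counts, hairpin length, each replicate alone, and leaving out the most abundant gene.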

Additional observations from a re-analysis of the deposited data

How the results depend on the processing

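Of 27 recomputed values of the members' replicate ratios and their differences, 22 kept their direction and side of the threshold. The prior count does not enter the test, so its alternatives kept their side of the threshold by construction. Mir148a is among the 22 with total counts, though its log2 ratio fell from 0.35 to 0.07 (adjusted p = 0.049, exact binomial test). Of 18 recomputed counts of called genes, 17 stayed within 1.5 times the reported count. The scaling decided the direction of the replicate ratios of Mir148b and Mir152. With total counts Mir148b turned to -0.12 and Mir152 to -0.0063, neither passing, and the genes higher in replicate 2 fell from 129 to 66. Mir148b passed the threshold with DESeq2 size factors (0.16, adjusted p = 0.048), with counts over both strands (0.18, adjusted p = 0.024) and with a minimum of 100 counts (0.26, adjusted p = 0.00051), against adjusted p = 0.061 as reported, and the exact binomial test gave each of these. Hairpin length turned the log2 ratio of Mir148b over Mir152 to -0.033 and brought that of Mir148a over Mir152 to 2.22, by construction.

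Leaving out Mir335, the most abundant gene, raised Mir148a to 1033 CPM, Mir148b to 212, Mir152 to 163 and the family share to 0.141%, because the total shrank. With counts over both strands Mir148a was at 837 CPM, Mir152 at 132 CPM and the share at 0.114%, since the total grew, and TMM put Mir152 at 139 CPM. With 2 libraries, a value from either replicate alone lies within 1 SD of their mean by arithmetic, so it says nothing about stability. No paired analysis was possible because the labels give 1 group. Mir152, with 578 and 662 counts, had the widest interval of the replicate log2 ratio, and the 2 libraries limit all statements on spread.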
